A study of Mus musculus with 8 samples.

Results

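The genes described here are 10 members of the NRF2 and glutathione pathways in liver RNA of diabetic mice: the transcription factor gene Nfe2l2, the glutathione synthesis genes Gclc and Gclm, the glutathione S-transferase genes Gstm1, Gstm3 and Gsta4, and the oxidoreductase and heme genes Nqo1, Txnrd1, Srxn1 and Hmox1. They were chosen by gene symbol, as 10 of the 41388 features counted in each library, and all 10 passed the filter on low counts. The comparison asked how liver gene expression differed between db/db mice given NAMPT and db/db mice given a control vector. No gene of the 10 passed the test between the groups. The limma adjusted p ranged from 0.563 to 0.948 and the exact permutation p from 0.0857 to 0.971, no unadjusted p was under 0.05, and the groups overlapped for every gene. The fitted fold change had a 95% confidence interval within 1.5-fold in either direction for 9 genes, and Gstm3 was the exception.

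All mice were littermate db/db mice, which lack a working leptin receptor and become obese and diabetic. The strain was given as C57B/6J. At 5 weeks of age the mice were randomised, and a tail vein injection delivered adenovirus that encoded green fluorescent protein (AdGFP, 4 mice) or nicotinamide phosphoribosyltransferase (AdNAMPT, 4 mice), the rate-limiting enzyme of NAD salvage. The sample records gave 4 to 5 weeks of overexpression and 10 weeks as the age at sampling. Shorter times from adenovirus delivery to assay are given in the study's text. Nampt transcript did not separate the groups in these libraries, as described below. The genotype field read control for AdGFP and NAMPT overexpression for AdNAMPT. Adenovirus was present in both arms, and no mice without virus or without the db mutation were compared here, so the values bear on NAMPT against GFP only.

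NRF2, the product of Nfe2l2, is a transcription factor that is held in the cytoplasm by KEAP1 and degraded. When electrophiles or oxidants modify KEAP1, NRF2 escapes, enters the nucleus and, with small MAF proteins, binds antioxidant response elements near genes for glutathione synthesis, conjugation and redox control. Glutathione is a thiol tripeptide that the liver makes in large amounts and uses to quench peroxides and to tag reactive compounds for export. NRF2 is regulated largely through its protein, so its own transcript level need not follow its activity.

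Antioxidant response element cores were looked for in the RefSeq promoters (GRCm38.p6, from 250 bases before to 50 bases after the transcription start), because the genes are grouped by this element. The core was spelled TGACNNNGC and searched on both strands. Of the 10 genes, 7 had a promoter in the table used, and 4 of these 7 held a core. The background was 14% of 27025 genes and 12.4% of 32851 promoters. The matches are shown 5′ to 3′ on the strand that carries the core, with the core in capitals. The Nfe2l2 match was at chr2:75704885-75704913, on the gene's strand, and began 240 bases before the start:
Nfe2l2: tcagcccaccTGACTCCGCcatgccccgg
The other three were on the strand opposite to the gene, at chr3:122245413-122245441 (Gclm), at chr10:82859104-82859132 (Txnrd1, in 1 of its 3 promoters) and at chr2:152105542-152105570 (Srxn1, downstream of the start):
Gclm: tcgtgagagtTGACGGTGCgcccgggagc
Txnrd1: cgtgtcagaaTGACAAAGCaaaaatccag
Srxn1: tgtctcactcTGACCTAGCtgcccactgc
A match is a description of letters and not evidence of binding, and enhancers farther away were outside this window. Of the 4 genes with a core, Nfe2l2, Txnrd1 and Srxn1 had higher and Gclm had lower estimates in AdNAMPT, all within the spread between mice.

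Each library held 12006713 to 19879814 counted reads, and a count of 3 corresponded to 0.151 to 0.250 CPM (counts scaled to the library total). Within each group, libraries differed by at least 12.5 times the sampling noise (chi-square per degree of freedom), so none was a repeat of another. The 6 hepatocyte markers summed to between 100600 and 127600 CPM in every library, which fits the tissue label. Nampt transcript did not mark the groups apart (102.3 to 152.7 CPM in AdGFP, 120.5 to 177.8 CPM in AdNAMPT, log2 difference 0.08 ± 0.15 SE, limma adjusted p = 0.915), so the direction of each difference rests on the library labels. The library labelled AdNAMPT replicate 1 stood apart from the rest. Its female-biased liver genes summed to 205.9 CPM against 1140 to 1610 CPM in the other 7 libraries, and its male-biased genes to 1712 CPM against 367.2 to 508.2 CPM. Without it, none of the 10 genes passed either threshold by limma. No gene of the 10 passed the adjusted threshold when any other library was left out. Unadjusted p fell under 0.05 for 3 genes without AdGFP replicate 2 (Nfe2l2, Gclc and Gstm1) and for 2 without AdNAMPT replicate 2 (Gclc and Gstm3). Among 12270 genes tested, 34 (0.277%) passed an adjusted p of 0.05, 1189 (9.69%) had an unadjusted p under 0.05, and 588 (4.79%) had groups that did not overlap after TMM scaling, against 0, 0 and 0 of the 10 genes. With the edgeR quasi-likelihood test and with DESeq2 the adjusted counts were also 0, and DESeq2 gave 1 unadjusted p under 0.05, that of Gclc. The 9.69% belongs to the limma fit of all 8 libraries. No such share is given for DESeq2 or for the fits with 1 library left out. Their unadjusted counts are therefore not read as a departure from all genes. The estimates were higher in AdNAMPT for 6 genes and lower for 4, with a median log2 difference of 0.04 beside 0.00 over all genes tested.

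**Figure D1:**
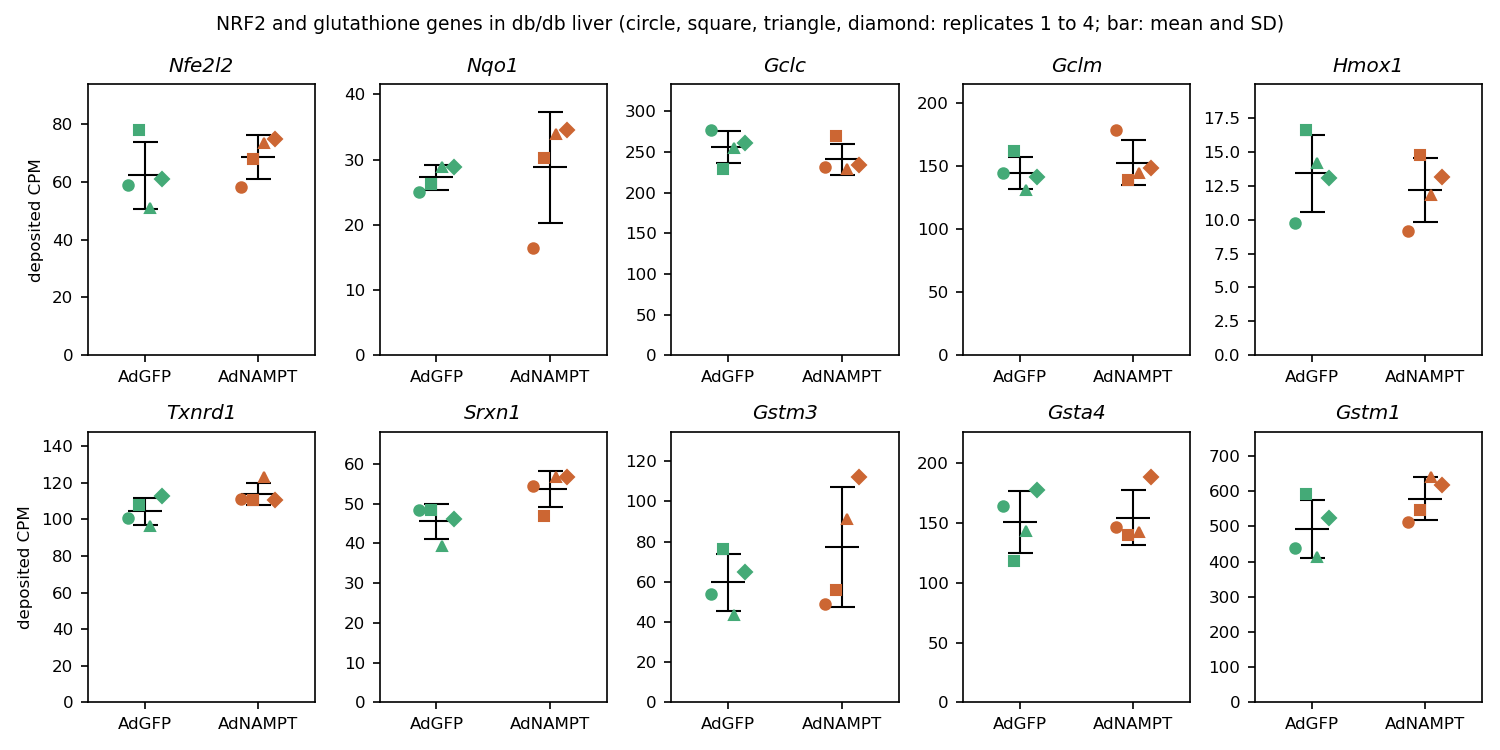
Deposited CPM of each of the 10 genes in the 4 AdGFP and 4 AdNAMPT libraries, with every axis starting at 0; symbols mark replicates 1 to 4, and the bar marks the mean and SD. The 2 groups overlap in every panel, and AdNAMPT replicate 1 lies lowest for Nqo1, at 16.4 CPM.

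Nfe2l2 (ENSMUSG00000015839, chr2:75675513-75704641, minus strand, GRCm38) had 59.1, 78.2, 51.0 and 61.0 CPM in the AdGFP mice, in the order of their numbers from 1 to 4 (kept for every gene that follows), and 58.3, 68.2, 73.7 and 74.9 CPM in the AdNAMPT mice. The highest value belonged to AdGFP replicate 2 and the lowest to AdGFP replicate 3, so the AdNAMPT values lay inside the AdGFP range. The group means were 62.3 ± 11.5 and 68.8 ± 7.56 CPM (SD, n = 4), a log2 difference of 0.13 ± 0.12 (SE), with a fold interval from 0.904 to 1.32 (limma adjusted p = 0.791; exact two-sided permutation p = 0.8, where the smallest possible is 0.0286). The log2 difference was 0.02 without AdGFP replicate 3 and 0.21 without AdGFP replicate 2 (limma adjusted p = 0.501). It was 0.05 without sample weights, which the permutation test did not use. In bulk liver, fewer cells of a type and less RNA per cell cannot be told apart, here and for every gene that follows.

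Gclc encodes the catalytic and Gclm the modifier subunit of glutamate-cysteine ligase, which makes the first and rate-limiting step of glutathione synthesis. Gclc (ENSMUSG00000032350, chr9:77754535-77794485) was at 277.6, 229.7, 254.7 and 261.5 CPM in AdGFP and at 231.2, 269.7, 229.7 and 233.7 CPM in AdNAMPT. AdNAMPT replicate 2 alone reached the upper AdGFP values, and the other 3 AdNAMPT libraries lay near the lowest AdGFP library in CPM and below all AdGFP libraries after TMM scaling. Gclc had the smallest p of the 10 genes, with a log2 difference of -0.17 ± 0.08 (SE), a fold interval from 0.784 to 1.01, a limma adjusted p of 0.563 and an exact permutation p of 0.0857. Without AdNAMPT replicate 2 the log2 difference was -0.27 (limma adjusted p = 0.292), so it remained short of the threshold.

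Gclm (ENSMUSG00000028124, chr3:122245557-122269984) was at 144.4, 162.0, 131.5 and 141.2 CPM in AdGFP and at 179.1, 139.0, 145.0 and 148.8 CPM in AdNAMPT. In CPM its highest value was that of AdNAMPT replicate 1, and after TMM scaling that of AdGFP replicate 2. The mean in CPM was higher in AdNAMPT (153.0 against 144.8), while the fitted estimate after TMM scaling was slightly lower. With library size alone the estimate was 0.04. The log2 difference was -0.05 ± 0.09 (SE), with a fold interval from 0.847 to 1.11 (limma adjusted p = 0.914). The ratio of Gclc to Gclm per length (RPKM) was 2.89 ± 0.398 in AdGFP and 2.59 ± 0.431 in AdNAMPT (SD, n = 4). It ran from 2.09 in AdNAMPT replicate 1 to 3.14 in AdNAMPT replicate 2, so the spread within AdNAMPT was wider than the difference between the group means. Of the Gclm 50-base windows, 4.58% also occur in other genes, while Gclc had none.

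The 3 transferases conjugate glutathione to electrophiles: Gstm1 and Gstm3 belong to the mu class, and Gsta4 to the alpha class. The Gsta4 enzyme is known for acting on the lipid peroxidation product 4-hydroxynonenal. Gstm1 (ENSMUSG00000058135, chr3:108012255-108017973, minus strand) was the highest of the 10 genes. It was at 438.0, 592.0, 412.1 and 525.1 CPM in AdGFP and at 512.8, 546.3, 640.9 and 617.3 CPM in AdNAMPT. AdGFP replicate 2 lay above 2 of the AdNAMPT libraries in CPM and above all 4 after TMM scaling, at 642.9 against 496.4 to 619.1. The log2 difference was 0.19 ± 0.12 (SE), with a fold interval from 0.942 to 1.38 (limma adjusted p = 0.675). It ran from 0.09 without AdGFP replicate 3 to 0.27 without AdGFP replicate 2.

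Gstm3 (ENSMUSG00000004038, chr3:107963696-107969283, minus strand) varied most between mice, 2.58-fold from the lowest to the highest library. Its values were 54.0, 76.3, 43.5 and 64.9 CPM in AdGFP and 49.0, 56.1, 91.2 and 112.2 CPM in AdNAMPT. In AdNAMPT, replicates 3 and 4 lay above every AdGFP library, while replicates 1 and 2 lay inside the AdGFP range. The log2 difference of 0.29 ± 0.24 (SE) had a fold interval from 0.851 to 1.76 (limma adjusted p = 0.739). Leaving out AdNAMPT replicate 4 gave 0.00, leaving out its replicate 3 gave 0.05 and leaving out AdGFP replicate 3 gave 0.12, but 0.48 was reached without AdNAMPT replicate 1 and 0.56 without replicate 2 of that group (limma adjusted p = 0.452), so its size depended on which mouse was left out. Gstm3 shares 28.8% of its 50-base windows with other features, mostly Gm8834, and Gstm1 18.9%, mostly Gstm2-ps1. Reads from these windows were not unique and the counts of both genes are therefore less certain.

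Gsta4 (ENSMUSG00000032348, chr9:78191966-78209348) shared no window with another gene. It was at 164.6, 118.3, 143.3 and 177.5 CPM in AdGFP and at 146.8, 139.9, 142.6 and 188.6 CPM in AdNAMPT. AdGFP replicate 2, among the highest for Gstm1 and Gstm3, was the lowest for Gsta4. The log2 difference was -0.11 ± 0.13 (SE), with a fold interval from 0.765 to 1.13 (limma adjusted p = 0.843). The mean in CPM was slightly higher in AdNAMPT (154.4 against 150.9), while the fitted estimate, on the log scale with TMM scaling and sample weights, was lower. That estimate was -0.03 with library size alone, -0.03 without AdGFP replicate 4 and -0.21 without AdNAMPT replicate 4. Summed over the 3 transferases without TMM scaling, AdGFP libraries held 598.9 to 786.6 CPM and AdNAMPT libraries 708.5 to 918.1 CPM, with Gstm1 the largest part.

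Nqo1 encodes NAD(P)H:quinone oxidoreductase, a 2-electron quinone reductase widely used as a readout of NRF2. Nqo1 (ENSMUSG00000003849, chr8:107388225-107403206, minus strand) was at 25.02, 26.3, 28.9 and 28.9 CPM in AdGFP and at 16.4, 30.3, 34.0 and 34.6 CPM in AdNAMPT. In CPM, 3 AdNAMPT libraries lay above all 4 AdGFP libraries, and after TMM scaling replicates 3 and 4 did, with replicate 2 level with the highest AdGFP library. AdNAMPT replicate 1, the library that stood apart, lay below all AdGFP libraries on both scales. The log2 difference was 0.05 ± 0.15 (SE), with a fold interval from 0.823 to 1.30 (limma adjusted p = 0.948, exact permutation p = 0.971). The permutation test used no sample weights, and without them the fitted difference was -0.05. With weights but without AdNAMPT replicate 1 the log2 difference was 0.18 (limma adjusted p = 0.496). The part of that library's other differences in this value was not tested.

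Txnrd1 encodes the cytosolic thioredoxin reductase, and Srxn1 encodes sulfiredoxin, which repairs over-oxidised peroxiredoxins. Txnrd1 (ENSMUSG00000020250, chr10:82859206-82897724) was at 100.9, 107.9, 96.3 and 112.6 CPM in AdGFP and at 111.4, 110.4, 123.3 and 110.8 CPM in AdNAMPT. Its interval was the narrowest of the 10, from 0.915 to 1.148 in fold, around a log2 difference of 0.04 ± 0.07 (SE) (limma adjusted p = 0.922). Srxn1 (ENSMUSG00000032802, chr2:152105516-152111376) was at 48.5, 48.4, 39.2 and 46.1 CPM in AdGFP and at 54.4, 47.0, 56.6 and 56.7 CPM in AdNAMPT. In CPM, 3 of the 4 AdNAMPT libraries exceeded every AdGFP library for Srxn1, and the fourth lay inside the AdGFP range. The log2 difference after TMM scaling was 0.13 ± 0.10 (SE), with a fold interval from 0.945 to 1.27 (limma adjusted p = 0.714). It ran from 0.05 without AdGFP replicate 3 to 0.22 without AdNAMPT replicate 2.

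Hmox1, heme oxygenase 1, breaks down heme and in liver is strongly expressed by Kupffer cells, the resident macrophages. It was the lowest of the 10 genes per length. Hmox1 (ENSMUSG00000005413, chr8:75093591-75100596) was at 9.77, 16.7, 14.2 and 13.1 CPM in AdGFP and at 9.16, 14.8, 11.8 and 13.2 CPM in AdNAMPT, from 110 to 237 reads a library. The lowest value in each group was that of replicate 1. The log2 difference was -0.10 ± 0.17 (SE), with a fold interval from 0.717 to 1.21 (limma adjusted p = 0.895). It was -0.25 without AdGFP replicate 1, -0.22 without AdNAMPT replicate 2, and -0.0043 without AdNAMPT replicate 3. The 11 Kupffer cell and macrophage markers summed to 351.6 to 447.5 CPM in AdGFP and to 267.4 to 433.7 CPM in AdNAMPT. None of them passed the adjusted threshold by limma, and 3 of the 11 had an unadjusted p under 0.05, all lower in AdNAMPT, beside 9.69% of all genes. Their part in the Hmox1 value was not tested. Per 100 CPM of these markers, Hmox1 stood at 3.32 ± 0.618 CPM (SD, n = 4) for AdGFP mice and 3.62 ± 1.01 CPM for AdNAMPT mice, so this ratio also overlapped between the groups.

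**Figure D2:**
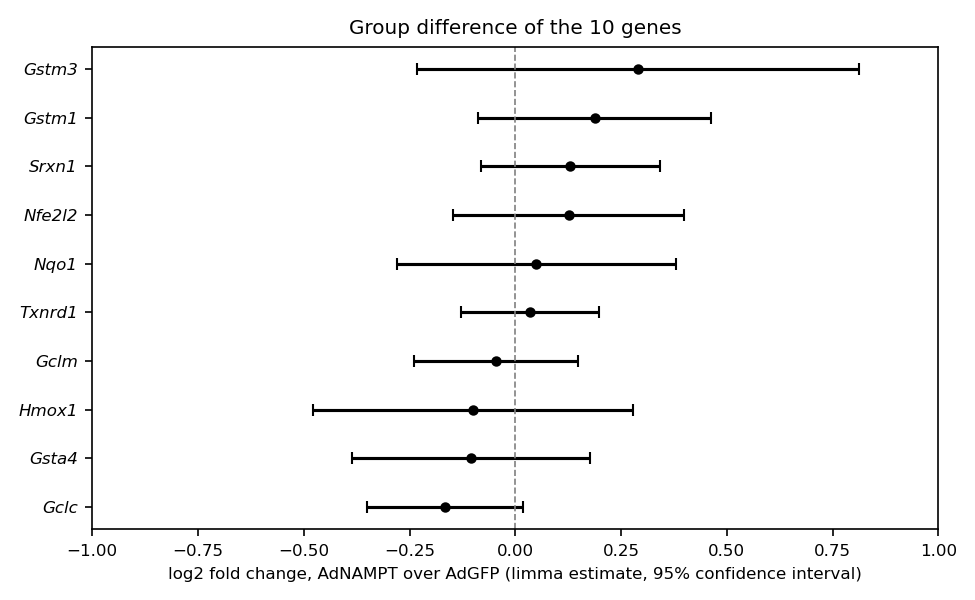
Log2 fold change of AdNAMPT over AdGFP for the 10 genes (limma estimate, point) with its 95% confidence interval (bar); the dashed line marks no difference. Every interval crosses 0, from Gclc at -0.17 to Gstm3 at 0.29, and Gstm3 has the widest.

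Compared per exonic length over all 8 libraries, the mean level ran from 384.2 RPKM for Gstm1, 159.5 RPKM for Gsta4 and 72.6 RPKM for Gclc to 5.93 RPKM for Hmox1. In between stood Gstm3 at 52.2, Txnrd1 at 32.0, Gclm at 26.9, Nqo1 at 18.1, Srxn1 at 17.6 and Nfe2l2 at 17.3 RPKM. Neighbours whose ranges over libraries overlapped were Gclc and Gstm3, Gstm3 and Txnrd1, Txnrd1 and Gclm, Nqo1 and Srxn1, and Srxn1 and Nfe2l2. Gstm1, Gsta4 and Hmox1 stood clear of their neighbours in every library. Thus the transferases Gstm1 and Gsta4 led the set, Gclc lay above Gstm3 in 6 of 8 libraries, and the transcript of the factor itself was among the lower ones.

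AdGFP replicate 3 held the lowest value for 6 of the 10 genes, in CPM and after TMM scaling. In CPM the highest value lay in an AdNAMPT library for 7 genes, 4 of them in AdNAMPT replicate 4, and in an AdGFP library for 3. After TMM scaling it lay in AdNAMPT for 5 and in AdGFP for 5, with 4 each in AdNAMPT replicate 4 and AdGFP replicate 2. On both scales the lowest value lay in AdGFP for 7 genes. Nfe2l2, Gstm1 and Gstm3, picked after their values were seen, all lay lowest in AdGFP replicate 3, at -0.31, -0.33 and -0.55 on the log2 scale from their own means. All of these were positive in AdGFP replicate 2, at 0.36, 0.25 and 0.32. Summed over the 10 genes without TMM scaling, AdGFP libraries held 1215 to 1456 CPM and AdNAMPT libraries 1369 to 1591 CPM. Gstm1 was the largest part, at means of 491.8 CPM of 1356 CPM in AdGFP and 579.3 CPM of 1482 CPM in AdNAMPT. The sum therefore says little of the lower genes.

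**Figure D3:**
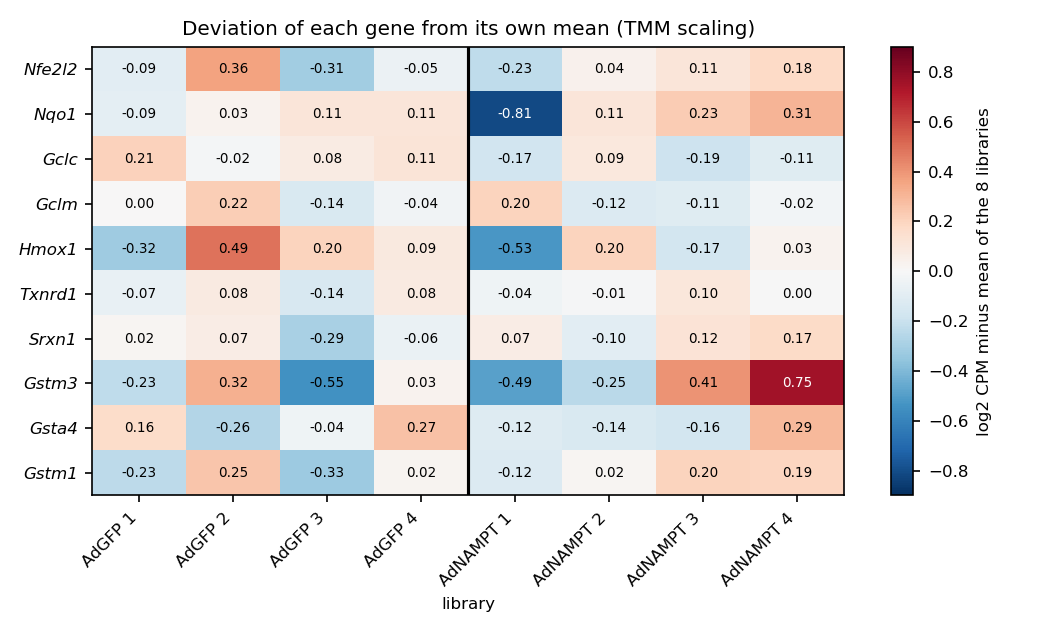
Log2 CPM after TMM scaling minus the gene's mean over the 8 libraries, for each gene (row) and library (column); red is above and blue below the mean, and the black line divides the groups. The column of AdGFP replicate 3 is mostly blue, and the most negative cell is Nqo1 in AdNAMPT replicate 1, at -0.81.

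Genes whose level most resembled that of Nqo1 over the 8 libraries were listed by Pearson's r on log2 CPM after TMM scaling. The 5 highest were Nudt1 (r = 0.987), Umps (0.979), Cyp2c39 (0.978), Pcna (0.975) and Uba7 (0.974). Without AdNAMPT replicate 1 these fell, in the same order, to 0.88, 0.80, 0.81, 0.76 and 0.75. Without AdGFP replicate 1 as well they were 0.97, 0.74, 0.69, 0.81 and 0.81. No gene passed after adjustment over 12269 genes, with a lowest adjusted p of 0.114 over all 40320 orderings of the exact permutation test, and 1953 genes (15.9%) had an unadjusted p under 0.05. Among the other 9 genes r with Nqo1 ran from -0.65 for Gclm to 0.63 for Hmox1, with adjusted exact permutation p from 0.338 to 0.956. Spearman's rho was -0.48 for Gclm (exact permutation p = 0.243, adjusted p = 0.715) and 0.19 for Hmox1 (exact permutation p = 0.665, adjusted p = 0.911). Without AdNAMPT replicate 1 and AdGFP replicate 1, the libraries farthest from the Nqo1 median, r was -0.80 for Hmox1 and -0.42 for Gclm. Without AdNAMPT replicate 1 alone, r was 0.04 for Hmox1, and for Gclc it went from 0.21 to -0.80. The likeness of Hmox1 to Nqo1 therefore rested on AdNAMPT replicate 1.

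The wider pathway was taken from 7 lists of 124 genes in all, of which 112 were tested. The lists include the 10 genes other than Nfe2l2. None passed the adjusted threshold in limma or edgeR, and DESeq2 called 1. Over all genes, DESeq2 called 75, edgeR 33 and limma 34. By limma, 14 (12.5%) had an unadjusted p under 0.05 beside 9.69% of all genes tested, 3 with higher and 11 with lower estimates in AdNAMPT. On TMM-scaled values, 2 of the 112 (Aox1 and Ftl1) stood higher in every AdNAMPT library than in any AdGFP library. Lower in the same sense were 10: Dpp3, Btrc, Rbx1, Anpep, Lap3, Chac2, Gstk1, Txn2, Prdx6 and Blvra. Among all genes tested, 4.79% separated in either direction. In CPM, Txn2 alone stood lower, while Aox1, Ftl1, Sqstm1, Gsr, Gpx4, Abcc3 and Akr7a5 stood higher. The 4.79% is for TMM-scaled values, and no share over all genes is given for CPM. With library size alone the median log2 difference of all genes was 0.09, so the CPM directions are not read as a trait of these genes. Over these 112 genes the median log2 difference was -0.03, beside 0.00 over all genes.

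Upstream of the 10 genes, the 13 NRF2 regulators had a median of -0.04, with 3 of 13 (23.1%) at an unadjusted p under 0.05 beside 9.69% of all genes. These were Dpp3, a peptidase that can compete with NRF2 for KEAP1 (log2 difference -0.21, limma adjusted p = 0.371), Nfe2l1, the related factor NRF1 (-0.26, adjusted p = 0.503), and Btrc, a ubiquitin ligase adaptor (-0.20, adjusted p = 0.511). Keap1 itself was at 46.9 to 51.1 CPM in AdGFP and 48.0 to 58.4 CPM in AdNAMPT, with a log2 difference of 0.07 and an interval in fold from 0.945 to 1.16.

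Glutathione synthesis and breakdown had the lowest median of the 7 lists, at -0.17 over 15 tested genes, and 5 of the 15 had an unadjusted p under 0.05 (33.3%, beside 9.69% of all genes), all with lower estimates. Markers of periportal hepatocytes, where much amino acid metabolism takes place, were read as well. They summed to 5720 to 7689 CPM in AdGFP and 5398 to 7736 CPM in AdNAMPT (exact permutation p of the sum = 0.4). None of the 6 passed the adjusted threshold by limma. By unadjusted p under 0.05 there were 4 of the 6, all lower in AdNAMPT, beside 9.69% of all genes. Of 7 pericentral markers, 1 had such a p, also lower, and none passed the adjusted threshold. Their part in the list was not tested. Cth, cystathionine gamma-lyase, which supplies cysteine, was at 2727, 1178, 1706 and 1595 CPM in AdGFP and at 1599, 1438, 893.4 and 1248 CPM in AdNAMPT. AdGFP replicate 1 stood far above the rest for Cth, and the groups overlapped (log2 difference -0.61 ± 0.23 SE, limma adjusted p = 0.465). Slc3a2, the heavy chain of several amino acid transporters, had a log2 difference of -0.34 (adjusted p = 0.2997). The other three were the peptidases Anpep at -0.17 and Lap3 at -0.19, and Cbs, the enzyme before Cth, at -0.31. Slc7a11, the cystine transporter that pairs with Slc3a2, and Ggt1 and Ggt7, which break glutathione down, were too low to be tested, with at most 0.531 CPM.

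Of 25 transferase genes 20 were tested, and none had an unadjusted p under 0.05 by limma. The median was -0.08, with Gstk1 at -0.14 (adjusted p = 0.536) and Gsta2 at -0.19 (adjusted p = 0.574) at its front by p. Gsta2 shares 49.8% of its 50-base windows with other genes, mostly Gsta1, so its count is uncertain. Summed levels of the listed transferases were 11140 to 12270 CPM in AdGFP and 11130 to 12810 CPM in AdNAMPT, nearly the same range. Mgst1, at a mean of 5354 CPM in AdGFP and 5893 CPM in AdNAMPT, and Gsta3, at 2784 and 2602 CPM, led this sum. It therefore says little of the lower genes. Gstp1, Gstp2 and Gstp3, pi class enzymes, were listed at 0 in all 8 libraries. No level was read for the pi class.

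Among 26 tested peroxide, thioredoxin and superoxide enzymes the median was -0.01. Txn2, the mitochondrial thioredoxin, was at 112.6, 130.2, 107.9 and 118.3 CPM in AdGFP and at 87.2, 102.3, 106.4 and 81.9 CPM in AdNAMPT, lower in every AdNAMPT library than in any AdGFP library. The log2 difference was -0.36 ± 0.10 (SE), with a limma adjusted p of 0.287. DESeq2 gave -0.41 with an adjusted p of 0.0491, the only call in the lists by any of the tools. It was 1 of 75 genes that DESeq2 called in all. Prdx6, a peroxiredoxin that uses glutathione, had a log2 difference of -0.21 (limma adjusted p = 0.426). Txnrd2, the mitochondrial partner of Txn2, had 0 to 2 reads a library. It lies beside 4 genes at 0 in every library (Ranbp1, Trmt2a, Dgcr8 and Tango2; chr16:18239784-18348103), and no level was read for it either.

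NADPH supply, which recharges glutathione and thioredoxin, had the highest median, 0.12 over 8 tested genes, with no unadjusted p under 0.05 by limma. Me1, malic enzyme, ran from 40.6 to 155.4 CPM in AdGFP and from 60.8 to 220.6 CPM in AdNAMPT (log2 difference 0.69 ± 0.39 SE, adjusted p = 0.624), and Tkt, transketolase, had a log2 difference of 0.22 (adjusted p = 0.672). The other NRF2 target enzymes and transporters had a median of 0.01 over 19 tested genes. Aox1, aldehyde oxidase, was at 82.7 to 97.9 CPM in AdGFP and at 110.0 to 119.2 CPM in AdNAMPT, higher in every AdNAMPT library (log2 difference 0.24 ± 0.08 SE, limma adjusted p = 0.383). Cbr3, a carbonyl reductase, was near the detection limit, at 0.273 to 1.02 CPM in AdGFP and 0.916 to 2.01 CPM in AdNAMPT (log2 difference 0.92, adjusted p = 0.507).

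The 11 heme and iron genes around Hmox1 had a median of -0.07. Ftl1, the ferritin light chain, was at 250.2 to 294.3 CPM in AdGFP and 333.8 to 351.6 CPM in AdNAMPT, higher in every AdNAMPT library, with a log2 difference of 0.22 ± 0.08 SE (limma adjusted p = 0.426). Of its exonic bases, 8.13% overlap Gm22133 on the same strand. Windows shared with other genes were not counted for Ftl1 or Fth1. Blvra, biliverdin reductase A, which acts after heme oxygenase, had a log2 difference of -0.32 (adjusted p = 0.382). Fth1, the ferritin heavy chain, gave -0.11 (limma unadjusted p = 0.389), against 0.22 for the light chain, and the difference between the chains was not tested. Neither Ftl1 nor Blvra passed the adjusted threshold.

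**Figure D4:**
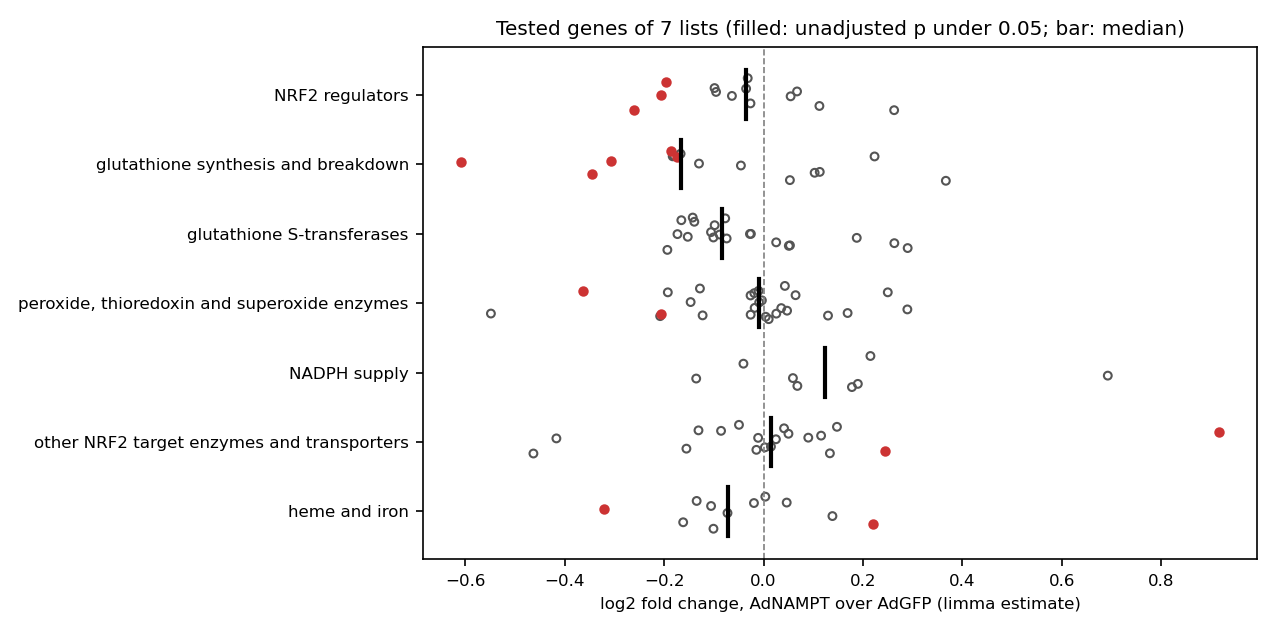
Log2 fold change of AdNAMPT over AdGFP (limma estimate) for the 112 tested genes in 7 lists (rows); filled red points have an unadjusted p under 0.05, open points do not, and the black bar is the list's median. The lowest median is that of glutathione synthesis and breakdown at -0.17, and the highest that of NADPH supply at 0.12.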

How the data were processed

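Liver RNA of 8 db/db mice (4 AdGFP, 4 AdNAMPT) was sequenced by the authors as single reads. Ribo-Zero is named in the labels, whereas poly-A selection is given in the study's methods. Reads were aligned to GRCm38 with STAR (2.4.0b in the submitters' processing notes) and counted per gene with featureCounts 1.4.5; use of strand is not given in the sources used here. The deposited counts are whole reads, the deposited CPM are counts scaled to the library total, and the deposited RPKM are CPM per kilobase of exon; both were recomputed from the counts. GENCODE M21 named 40340 of 41388 features. Following the study, 355 ribosomal RNA features and genes not above 1 CPM in at least 3 libraries were left out, leaving 12270 genes for TMM, voomWithQualityWeights and limma 3.58.1 (R 4.3.3), Benjamini-Hochberg adjusted, with edgeR 4.0.16 and DESeq2 1.42.0 as alternatives. Single values were compared by exact two-sided permutation over 70 assignments. For genes this took the unweighted difference of mean log2 CPM after TMM scaling, whereas the limma differences carry sample weights. Replicates were taken as separate mice from the sample titles, and p-values measure the spread between these libraries. The genes and lists were chosen with earlier results of these data known. Genes named from the lists were those of smallest unadjusted p, up to 4 a list, and all that separated the groups. Cbs, Keap1, Fth1, Slc7a11, Ggt1, Ggt7, Txnrd2, Mgst1, Gsta3 and the Gstp genes were added after their values were seen. The fits were tested on simulated data. Same-numbered mice did not pair (correlations of deviations -0.05 to 0.23).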

Additional observations from a re-analysis of the deposited data

Results flagged for a closer look

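A library was set apart when its gap to the nearest library of its group of 4, divided by the group's range, exceeded Dixon's critical value. Of 32 groups of values tested, 4 had such a library, and chance flags about 1 in 20 groups, or 1.6 here. Gclc stood at 269.7 CPM in AdNAMPT replicate 2, while the next AdNAMPT library was at 233.7 CPM. Txnrd1 was at 123.3 CPM in AdNAMPT replicate 3, with the next at 111.4 CPM. Gsta4 was at 188.6 CPM in AdNAMPT replicate 4, with the next at 146.8 CPM. The Gclc to Gclm ratio per length was 2.30 in AdGFP replicate 2, with the next AdGFP library at 2.999. The 4 values came from 4 different libraries.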

How the results depend on the processing

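None of the 10 genes passed the adjusted threshold under any of the 16 alternatives, and 7 kept their direction under all of them. Nqo1, at a log2 difference of 0.0502, turned to -0.0144 with the edgeR quasi-likelihood test, -0.0161 with DESeq2, -0.0542 without sample weights and -0.0157 without the filter on low counts. With 1 library left out it ran from -0.0463 (without AdNAMPT replicate 4) to 0.179 (without AdNAMPT replicate 1), below 0 also without AdGFP replicate 1 and without AdNAMPT replicate 3. Gclm turned to 0.0400 with library size alone and ran from -0.0952 to 0.00175 with 1 library left out, above 0 only without AdGFP replicate 2. Txnrd1 ran from -0.0152 to 0.0774, below 0 only without AdGFP replicate 3. Genes called in the lists numbered 0, and 1 by DESeq2 (Txn2), which called 75 genes in all. The causes were not tested. Library size alone moved the median of all genes to 0.09. The TMM factors were 0.947 to 0.977 in AdGFP and 1.01 to 1.05 in AdNAMPT, without overlap. TMM scaling therefore lowered AdNAMPT values relative to AdGFP values. With a replicate block, 0 of the 10 genes were called and 41 genes in all against 34 without it, and Hmox1 gave -0.25 (limma adjusted p = 0.498). The numbers do not mark shared animals, and 2 of 4 AdGFP mice and 1 of 4 AdNAMPT mice correlated best with their own number. The confidence intervals hold the differences these 4 libraries a group do not exclude.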
